A study of Homo sapiens with 3 samples.

Results

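The genes described here are the transcription factors that drive the epithelial to mesenchymal transition, together with cadherins and mesenchymal proteins that mark its ends. They were chosen by name: 10 genes were looked for by symbol, and the 8 that were listed in all 3 expression tables were kept, out of 22773 genes listed in all 3. The 8 are ZEB1 (ENSG00000148516, chromosome 10), ZEB2 (ENSG00000169554, chromosome 2), SNAI1 (ENSG00000124216, chromosome 20), SNAI2 (ENSG00000019549), TWIST2 (ENSG00000233608, chromosome 2), CDH1 (ENSG00000039068, chromosome 16), VIM (ENSG00000026025, chromosome 10) and FN1 (ENSG00000115414, chromosome 2). TWIST1 and CDH2 did not meet the rule and were not analysed here, so the cadherins are represented by CDH1 alone. All 8 also passed the filter of a mean of at least 1 CPM (read counts scaled to the library total) that left 14185 genes for testing.

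The cells were DU145, an established androgen-independent human prostate cancer line that grows as an epithelial sheet with some mesenchymal features. They were harvested 48 h after transfection with 75 nM of TSPAN18 siRNA 1, TSPAN18 siRNA 2 or a control siRNA, and all 3 received the same lipid reagent. TSPAN18 is a tetraspanin membrane protein that the study's title links to bone metastasis. There was 1 library per siRNA, 3 in all, so each siRNA stands without a replicate, and nothing in the labels names separate cultures.

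In the transition, an epithelial cell loosens its contacts with its neighbours and takes on a motile, spindle-like form. ZEB, SNAI and TWIST proteins bind short E-box sequences in the DNA and act largely as repressors of epithelial genes, above all of CDH1, which encodes E-cadherin, the adhesion protein of epithelial junctions. The other end of the transition is marked by N-cadherin, by the intermediate filament vimentin (VIM) and by the matrix glycoprotein fibronectin (FN1). In carcinoma cells partial states are common, in which epithelial and mesenchymal genes are on together.

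The libraries held 29913825 read pairs under siRNA 1, 29766559 under siRNA 2 and 30058731 with the control siRNA. TSPAN18 itself was at 1.37 CPM under siRNA 1 and 1.51 CPM under siRNA 2, versus 16.9 CPM in the control. The luminal epithelial keratins and EPCAM were present in all 3 libraries, with a summed level of 749 to 894 CPM over 4 genes. Fibroblast markers summed to 4.11 CPM under siRNA 1, 7.49 CPM under siRNA 2 and 7.82 CPM in the control over the 3 of 6 genes listed, mostly COL1A1. Endothelial markers summed to at most 1.48 CPM over 4 genes, and 0 of 4 haematopoietic markers were listed in all 3 tables. Ratios of transcripts with many G and C bases were lower under both siRNAs across all genes (across 14163 genes, Spearman's rho between log2 ratio and GC content was −0.43 under siRNA 1 and −0.36 under siRNA 2, as a description). Log2 ratios with this trend removed are given below for each of the 8 genes.

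E-boxes of the kind that ZEB and SNAI proteins recognise were looked for in the RefSeq promoter windows of GRCh38.p14, which run from 250 bases before to 50 bases after a start site. The letters searched were CACCTG on both strands, which is CAGGTG when read on the other strand. They were present in 20.6% of all 35116 windows. Windows were at hand for 5 of the 8 genes, 11 windows in all. ZEB1 had 7 of these, and FN1, TWIST2, VIM and ZEB2 had 1 each, while CDH1 had none. The letters occurred in 2 of the 11 windows, both among the 7 of ZEB1. The ZEB1 window with the most matches is printed here because ZEB1 was the only factor with higher levels under both siRNAs. It lies at chr10:31318966-31319265 on the plus strand, with the E-boxes in capitals at 242 and 85 bases before the start site and at base 34 after it. A match describes the letters only.

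ZEB1 promoter window: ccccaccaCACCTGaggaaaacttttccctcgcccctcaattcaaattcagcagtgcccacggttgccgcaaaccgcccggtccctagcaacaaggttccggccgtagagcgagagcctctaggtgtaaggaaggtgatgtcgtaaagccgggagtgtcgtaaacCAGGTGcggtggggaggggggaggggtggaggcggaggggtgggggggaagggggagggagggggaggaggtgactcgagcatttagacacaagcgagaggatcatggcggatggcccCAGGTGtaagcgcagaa

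A second kind of sequence was looked for in 3′ UTRs. Across all genes, the log2 ratio of siRNA 2 to siRNA 1 tended to be higher with TCACCAA or TTCACCA in the 3′ UTR than without. With TGGGTCA or GGGTCAA it tended to be lower than without, which is relative to the other genes only. These 4 heptamers were taken from the same libraries, as the ones that go farthest with the difference between the siRNAs, so they support nothing by themselves. Over the 12188 genes with an annotated 3′ UTR, the median log2 ratio of siRNA 2 to siRNA 1 was 0.23 for the 1498 genes with TCACCAA and 0.10 for the others. For TGGGTCA it was 0.01 for 1580 genes and 0.13 for the others. TSPAN18 holds TGGGTCA and none of the other 3 heptamers. Of the 8 genes, TWIST2 alone held any of the heptamers. It had TCACCAA and TTCACCA, which overlap, in 1 of its 2 annotated 3′ UTRs, and neither TGGGTCA nor GGGTCAA. The log2 ratio of siRNA 2 to siRNA 1 for TWIST2 itself was −0.56, the opposite direction from the median of the genes with TCACCAA. The site is printed from GENCODE 29 (GRCh38, chromosome 2), with TCACCAA in capitals at base 285 of a 3′ UTR of 509 bases.

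TWIST2 3′ UTR site: aaaatgaacctTCACCAAggtcttggaac

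No gene of the 8 passed the test of both siRNAs against the control (limma on log2(CPM + 1), Benjamini-Hochberg threshold of 0.05), and none of the 14185 genes did either (0.0%). That test sets 2 siRNA libraries against 1 control with 1 residual degree of freedom, and assumes that the lone control varies like them. Although some alternative fits called the target TSPAN18, this one did not, at 1.37 and 1.51 CPM versus 16.9 CPM. Not passing therefore does not show that a gene was unchanged. In limma 691 genes had an unadjusted p under 0.05, TWIST2 among them. Count-based fits to the recovered pairs gave 0 calls in edgeR's quasi-likelihood test (770 at an unadjusted p under 0.05), 0 in limma-voom, 23 in the likelihood ratio test of edgeR and 14 in DESeq2, with none of the 8 genes among them. In bulk RNA, fewer cells with a transcript and less of it per cell cannot be told apart. Sizes below are given as levels and ratios with counting error. Both siRNAs share the 1 control, so that agreement of their ratios is not independent evidence.

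**Figure D1:**
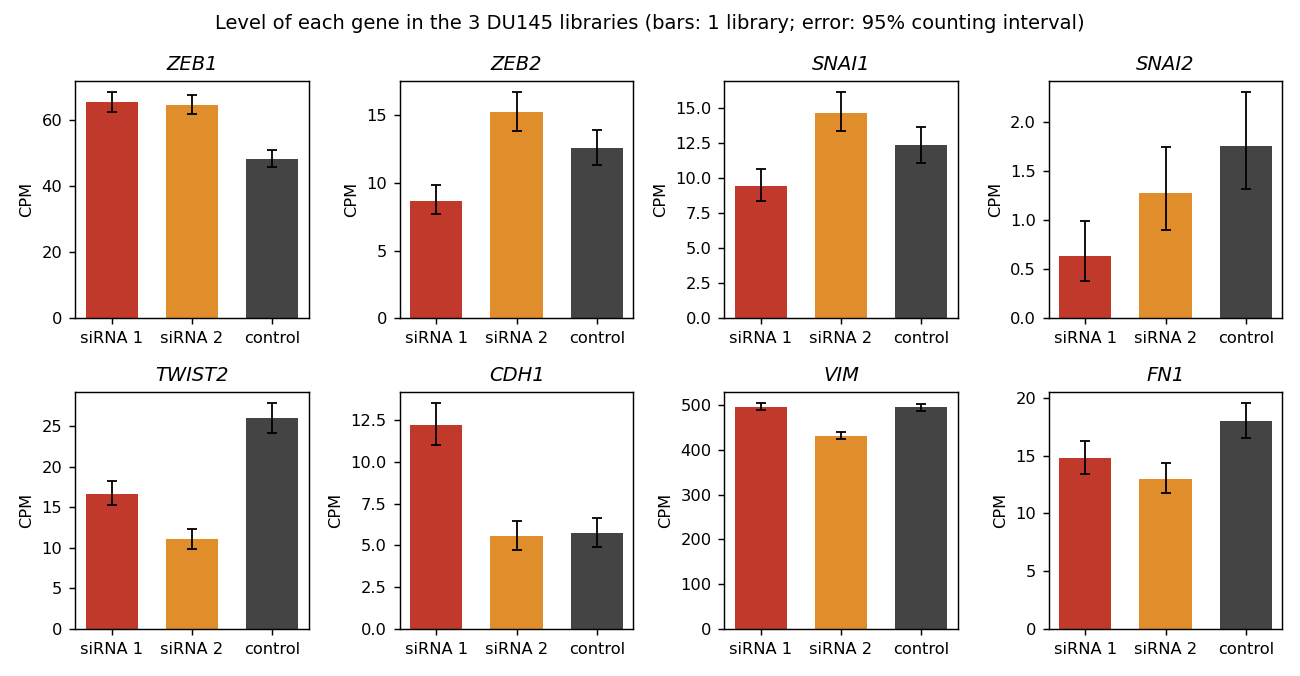
Level of each gene in CPM (vertical axes, starting at 0) in the siRNA 1, siRNA 2 and control libraries. Bars are single libraries and error bars are 95% Poisson intervals, which cover counting error only. ZEB1 was higher and TWIST2 lower under both siRNAs, and CDH1 was at 12.2 CPM under siRNA 1 and 5.54 CPM under siRNA 2, versus 5.72 CPM in the control.

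The most abundant of the factors in CPM was ZEB1, a zinc finger and homeodomain repressor of CDH1. It stood at 65.5 CPM under siRNA 1 and 64.6 CPM under siRNA 2, versus 48.3 CPM in the control, from 1958, 1922 and 1453 read pairs. The 3 counting intervals placed both siRNA libraries above the control and left them indistinguishable from each other: siRNA 2 held 98.6% of the siRNA 1 value (95% exact interval 92.6 to 105). Relative to the control, ZEB1 was at 135% under siRNA 1 (126 to 145) and 134% under siRNA 2 (125 to 143). On the log2 scale this was 0.43 and 0.41, averaging 0.42 ± 0.014 (SD, n = 2).

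A ratio of this size was not rare. Of all genes tested, 9.04% were at least as high under siRNA 1 and 13.3% under siRNA 2. limma gave ZEB1 an unadjusted p of 0.199 and an adjusted p of 0.992. Its transcripts have a GC content of 41.4%, below the median of 49.2%, and removing the GC trend gave log2 ratios of 0.34 under siRNA 1 and 0.26 under siRNA 2. The antisense gene ZEB1-AS1, which overlaps 4.23% of the exonic length of ZEB1, was at 3.31 and 3.59 CPM under siRNA 1 and siRNA 2 and at 1.70 CPM in the control. The strand setting of the counting is not given in the sources used here.

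ZEB2, the paralogue of ZEB1, went apart between the siRNAs. It was at 8.69 CPM under siRNA 1 and 15.2 CPM under siRNA 2, versus 12.5 CPM in the control, from 260, 453 and 377 pairs. It thus lay below the control under siRNA 1, at 69.3% (58.9 to 81.4), and above it under siRNA 2, at 121% (106 to 139). Its log2 ratios were −0.48 and 0.26, averaging −0.11 ± 0.53 (SD, n = 2), with an adjusted p of 0.995 in limma. The siRNA 2 level was 175% of the siRNA 1 level (150.0 to 205). Removing the GC trend gave log2 ratios of −0.57 under siRNA 1 and 0.12 under siRNA 2. Genes of the opposite strand overlap 5.18% of the exonic length of ZEB2.

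SNAI1, the Snail protein that represses CDH1 in early steps of the transition, had the same order of libraries as ZEB2. It was at 9.43 CPM under siRNA 1 and 14.6 CPM under siRNA 2, versus 12.3 CPM in the control, from 282, 436 and 370 pairs. Its level was 76.6% of the control under siRNA 1 (65.4 to 89.7) and 119% under siRNA 2 (103 to 137), and siRNA 2 held 155% of the siRNA 1 value (133 to 181). The mean log2 ratio was −0.06 ± 0.41 (SD, n = 2), with an adjusted p of 0.997 in limma. SNAI1 transcripts are rich in G and C (58.2%), and with the GC trend removed its log2 ratios were −0.07 under siRNA 1 and 0.36 under siRNA 2, where they were −0.35 and 0.23 without the correction.

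SNAI2, also called Slug, had the lowest CPM of the 8 genes in each library, with a mean just above the filter of 1 CPM. It had 19 pairs under siRNA 1, 38 under siRNA 2 and 53 in the control, which are 0.635, 1.28 and 1.76 CPM. The siRNA 1 library stood below the control at 36.0% (20.1 to 61.9). The interval of siRNA 2 over control, 46.4 to 112% around 72.4%, includes the control level, so that a difference was not detectable at this depth. The log2 ratios of −0.76 and −0.28 (adjusted p of 0.992 in limma) depend on the pseudocount at such levels, and were −1.34 and −0.44 with a pseudocount of 0.1 and −0.26 and −0.11 with a pseudocount of 5. With the GC trend removed they were −0.78 and −0.39.

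TWIST2, a basic helix-loop-helix repressor related to TWIST1, had the largest mean absolute log2 ratio of the 8, 0.89. It was at 16.7 CPM under siRNA 1 and 11.02 CPM under siRNA 2, versus 25.9 CPM in the control, from 499, 328 and 780 pairs. The 3 counting intervals did not overlap, and both siRNA libraries were below the control. Relative to it TWIST2 was at 64.3% under siRNA 1 (57.3 to 72.0) and 42.5% under siRNA 2 (37.2 to 48.4).

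On the log2 scale TWIST2 stood at −0.61 and −1.16, averaging −0.89 ± 0.39 (SD, n = 2), with an unadjusted p of 0.0367 and an adjusted p of 0.992 in limma. With siRNA 2, 0.571% of the genes tested were at least as low, and under siRNA 1, 14.1%. The part of the TCACCAA site in the siRNA 1 value was not tested. TWIST2 transcripts have a GC content of 58.3%, and removing the GC trend gave log2 ratios of −0.32 and −1.03. Among 9564 genes averaging 10 CPM or more, those whose pair of ratios lay nearest to that of TWIST2 were TMEM200B (Euclidean distance 0.03 in log2 units), CORO2B (0.10) and MT1E (0.10).

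CDH1, the E-cadherin gene, differed from the control beyond counting error under siRNA 1, and not under siRNA 2. It was at 12.2 CPM under siRNA 1 and 5.54 CPM under siRNA 2, versus 5.72 CPM in the control, from 365, 165 and 172 pairs. The siRNA 1 library held 213% of the control level (177 to 257) and its interval lay well above those of the other libraries, which overlapped. With siRNA 2 the level was 96.9% of the control (77.8 to 121). On the log2 scale this was 0.97 and −0.04, averaging 0.47 ± 0.72 (SD, n = 2), with an unadjusted p of 0.323 and an adjusted p of 0.992 in limma.

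The siRNA 1 ratio of CDH1 was uncommon among all genes, of which 0.775% were at least as high, and 0.783% were at least as low as its log2 ratio of −1.01 for siRNA 2 over siRNA 1. With the GC trend removed the ratios were 1.10 and −0.02. CDH1 transcripts have a GC content of 50.02%, near the median, their exons overlap a gene of the opposite strand on 5.62% of their length, and their 3′ UTRs held none of the 4 heptamers. The library with the highest CDH1 level was the one with the lowest ZEB2, SNAI1 and SNAI2 levels, while TWIST2 was lowest under siRNA 2 and ZEB1 was as high under siRNA 1 as under siRNA 2. With 3 libraries no relation between these levels can be tested.

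VIM was the most abundant gene of the 8 by far, at 497.2 CPM under siRNA 1 and 431.8 CPM under siRNA 2, versus 495.4 CPM in the control. The siRNA 1 library matched the control within counting error, at 100.4% (98.1 to 103). The siRNA 2 library was at 87.2% (85.1 to 89.2), a log2 ratio of −0.20, and 27.7% of all genes were at least as low. limma gave an adjusted p of 0.994 for VIM. Removing the GC trend gave log2 ratios of 0.19 under siRNA 1 and −0.14 under siRNA 2. On 24.4% of its exonic length VIM overlaps genes of the opposite strand, of which VIM-AS1 was at 1.77, 0.941 and 0.865 CPM in the siRNA 1, siRNA 2 and control libraries.

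FN1, which forms fibrils outside the cell, was at 14.8 CPM under siRNA 1 and 13.0 CPM under siRNA 2, versus 18.0 CPM in the control. Both siRNA libraries were below the control, at 82.2% (72.4 to 93.4) and 72.4% (63.3 to 82.6), and did not differ from each other beyond counting error (88.0%, 76.6 to 101). The log2 ratios were −0.27 and −0.44, with a mean of −0.35 ± 0.12 (SD, n = 2), and limma gave an adjusted p of 0.992. With siRNA 2, 11.6% of all genes were at least as low, and under siRNA 1, 34.8%. The ratios were −0.16 and −0.43 once the GC trend was removed.

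Set against a rule of size, the 8 genes gave few calls. With both siRNAs 1 gene, TWIST2, was at least 1.5-fold lower (3.46% of all genes tested) and 0 were at least 1.5-fold higher (1.96%). At 2-fold under both siRNAs there were 0 higher and 0 lower, versus 0.261% and 0.423% of all genes. TWIST2 met the 1.5-fold rule narrowly under siRNA 1, and the call was lost with median-of-ratios scaling, with the GC trend removed and with a pseudocount of 5.

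With each siRNA taken alone, 1 gene was at least 1.5-fold higher under siRNA 1 (CDH1; 4.43% of all genes) and 2 were at least 1.5-fold lower (SNAI2 and TWIST2; 15.1%). With siRNA 2, 0 genes were at least 1.5-fold higher (6.34%) and 1 was lower (TWIST2; 6.61%). Between the siRNAs, 2 genes were at least 1.5-fold higher under siRNA 2 than under siRNA 1 (ZEB2 and SNAI1; 13.0%) and 1 was lower (CDH1; 3.74%). SNAI1 passed narrowly, at a log2 ratio of 0.59, and had 0.47 with median-of-ratios scaling, 0.43 with the GC trend removed and 0.45 with a pseudocount of 5, which end the call. ZEB2 lost it with a pseudocount of 5, at 0.56. The SNAI2 call under siRNA 1 was likewise lost with a pseudocount of 5. The median log2 ratio of the 8 genes was −0.31 under siRNA 1 and −0.12 under siRNA 2, versus −0.10 and 0.01 over all genes tested.

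**Figure D2:**
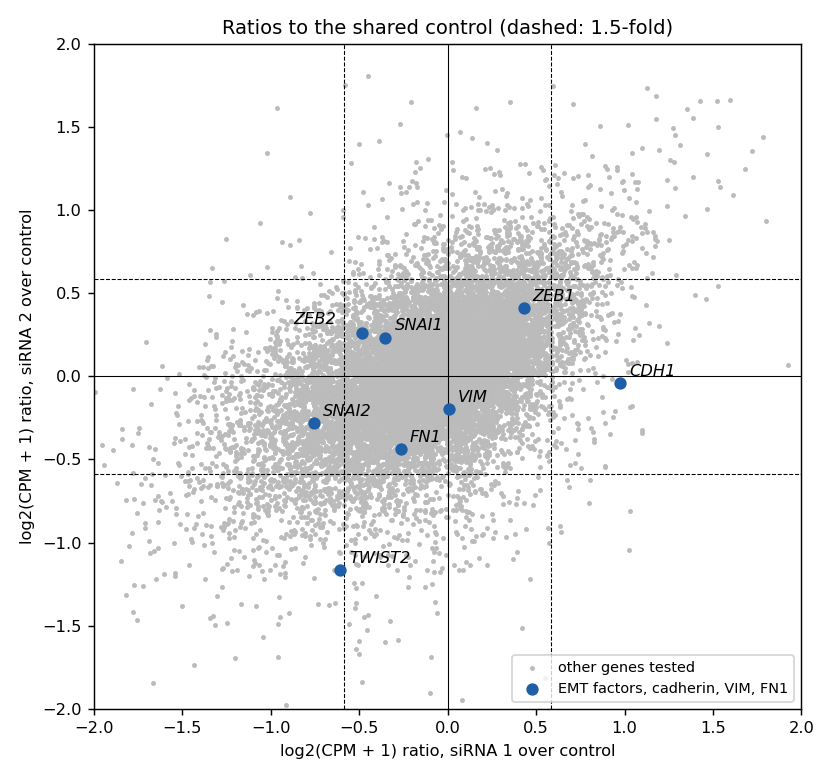
Each point is a gene, placed by its log2(CPM + 1) ratio of siRNA 1 to control (horizontal) and of siRNA 2 to control (vertical), with the 8 genes in blue and all other genes tested in grey. Dashed lines mark 1.5-fold, and 24 genes lie outside axes limited to 2 log2 units on either side. TWIST2 lies past the dashed lines at lower left, CDH1 lies far right at a height near 0, and ZEB2 and SNAI1 lie at upper left.

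Levels of different genes were set side by side per kilobase of exon. VIM led in all 3 libraries, at 96.4 CPM per kb under siRNA 1, 83.7 under siRNA 2 and 96.0 in the control, higher than 97.5% of the genes tested or more. TWIST2, SNAI1 and ZEB1 came next, between 5.59 and 13.8 CPM per kb. Their order differed between libraries. TWIST2 led the factors under siRNA 1 (8.88, before ZEB1 at 7.57 and SNAI1 at 5.59 CPM per kb), SNAI1 led under siRNA 2 (8.69, before ZEB1 at 7.46 and TWIST2 at 5.87), and TWIST2 led in the control (13.8, before SNAI1 at 7.30 and ZEB1 at 5.59). The counting intervals of these neighbours did not overlap within a library.

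CDH1, FN1, ZEB2 and SNAI2 were lower, at 0.187 to 1.98 CPM per kb. CDH1 and FN1 were neighbours and overlapped in their counting intervals under siRNA 2 (0.897 and 0.751 CPM per kb) and in the control (0.926 and 1.04), but not under siRNA 1 (1.98 and 0.853). SNAI2 and ZEB2 overlapped in the control alone, at 0.520 and 0.501 CPM per kb. In the control CDH1 was higher per kb than 14.7% of the genes tested. Exonic lengths are those of all annotated transcripts merged. For ZEB2 this is 25058 bases, and a shorter transcript in the cells would raise its value.

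**Figure D3:**
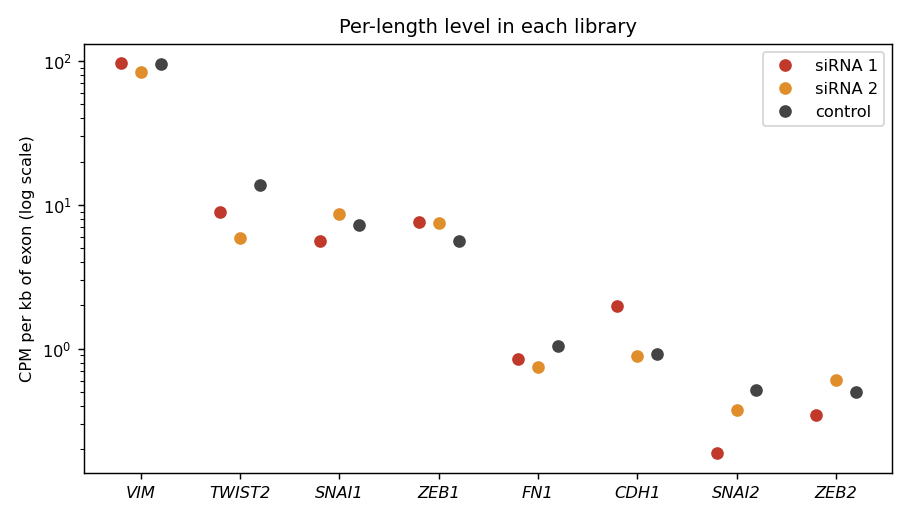
Level per kilobase of merged exons (vertical, log scale) of the 8 genes, ordered by their control value, in the siRNA 1, siRNA 2 and control libraries. VIM sits above all other genes in each library, and TWIST2 is lower under both siRNAs than in the control.

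Other genes of the transition were taken from 8 lists. Their ratios to the control are given without removal of the GC trend. No listed gene passed limma over all genes (adjusted p), and counts below are of direction only. Of all 14185 genes tested, 4161 were higher and 5347 lower under both siRNAs, with median log2 ratios of −0.10 and 0.01. E-cadherin acts through catenins, which tie it to actin. Of the 7 measured genes of the cadherin-catenin complex, 2 were higher and 2 lower under both siRNAs, with median log2 ratios of 0.20 under siRNA 1 and −0.09 under siRNA 2. The alpha-catenin gene CTNNA1 was at 496 and 493.2 CPM under siRNA 1 and siRNA 2, versus 425.5 CPM in the control. CTNND1 (p120-catenin), which holds E-cadherin at the membrane, was at 368.6 and 355.4 CPM, versus 320.5 CPM. Lower values were found for the catenin-related ARVCF (7.49 and 10.6 CPM, versus 16.2 CPM) and PKP4 (48.7 and 79.5 CPM, versus 89.6 CPM).

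Among 14 other cadherins, 5 passed the filter, with 2 higher and 3 lower under both siRNAs and medians of −0.09 and −0.16. CDH3 (P-cadherin) was at 31.1 CPM under siRNA 1 and 21.4 CPM under siRNA 2, versus 33.2 CPM in the control, and in each library it was above CDH1 in CPM. CDH24 was at 25.3 and 30.7 CPM, versus 34.4 CPM. CDH15 was at 0.401 and 1.44 CPM, versus 1.83 CPM, and CDH26 at 1.07 and 1.11 CPM, versus 1.03 CPM.

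Transforming growth factor beta is a main inducer of the transition, signalling through its receptors to SMAD proteins. Of 14 measured genes 3 were higher and 4 lower under both siRNAs, with medians of −0.30 and 0.02. TGFB1, the ligand, was at 260.3 and 258.3 CPM under siRNA 1 and siRNA 2, versus 237.2 CPM in the control. SMAD3, which carries the signal to the nucleus, was at 254.1 and 295.0 CPM, versus 362.6 CPM. The inhibitory SMAD6 was at 56.1 and 52.8 CPM, versus 89.1 CPM. TGFBR3, the co-receptor betaglycan, was at 9.66 and 11.4 CPM, versus 12.9 CPM.

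Of 10 measured genes among other inducers of the mesenchymal state, 1 was higher and 7 lower under both siRNAs, with medians of −0.44 and −0.32. The higher gene was TCF3, whose E2A proteins partner with TWIST proteins at E-boxes, at 368.8 and 317.6 CPM under siRNA 1 and siRNA 2, versus 207.1 CPM in the control. FOSL1, an AP-1 subunit, was at 398.9 and 365.9 CPM, versus 593.3 CPM. The developmental factor FOXC1 was at 2.31 and 4.80 CPM, versus 7.32 CPM.

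Of 6 measured factors that hold the epithelial state, 2 were higher and 3 lower under both siRNAs, with medians of −0.46 and −0.18. ESRP2, which directs epithelial splicing, was at 14.7 and 16.2 CPM under siRNA 1 and siRNA 2, versus 32.8 CPM in the control. GRHL1 was at 6.05 and 4.74 CPM, versus 9.61 CPM. FOXA1 was at 47.5 and 47.4 CPM, versus 64.5 CPM. KLF4 was higher, with 24.9 and 25.6 CPM, versus 20.8 CPM.

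A list of epithelial junction, polarity and surface genes, several of them known targets of ZEB1 repression, was on the lower side, with 9 of 13 measured genes lower and 1 higher under both siRNAs. The medians were −0.55 under siRNA 1 and −0.27 under siRNA 2, without removal of the GC trend. Over all 14185 genes tested, 5347 were lower and 4161 higher under both siRNAs. SPINT1, an inhibitor of surface proteases, was at 5.58 and 8.47 CPM under siRNA 1 and siRNA 2, versus 13.4 CPM in the control. LLGL2, a polarity protein, was at 16.7 and 22.8 CPM, versus 33.8 CPM. The desmosomal PKP3 was at 22.8 and 26.5 CPM, versus 33.9 CPM, and ST14 at 1.27 and 1.88 CPM, versus 2.53 CPM. All 4 luminal markers (KRT8, KRT18, KRT19 and EPCAM, the last of which is also in this list) were on the lower side under both siRNAs, summing to 758.2 and 748.9 CPM, versus 894.5 CPM. Whether the luminal markers and the genes of this list changed together was not tested. CDH1 lay on the opposite side from most of this list under siRNA 1.

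Mesenchymal effectors had 1 gene higher and 4 lower under both siRNAs among 16 measured, with medians of −0.35 and −0.08. COL6A1 was at 135.0 and 213.9 CPM under siRNA 1 and siRNA 2, versus 236.9 CPM in the control. LGALS1 was at 309.2 and 344.5 CPM, versus 416.8 CPM, and COL1A1 at 3.18 and 5.98 CPM, versus 7.25 CPM. CTGF, a matrix-associated growth factor, was higher, with 66.9 and 60.9 CPM, versus 53.6 CPM.

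Partners and degraders of SNAI and ZEB proteins had 6 genes higher and 5 lower under both siRNAs among 18, with medians of 0.09 and 0.03. FBXO45, a substrate receptor of a ubiquitin ligase that targets such factors, was at 114.2 and 87.4 CPM under siRNA 1 and siRNA 2, versus 51.9 CPM in the control. HDAC1, a histone deacetylase recruited by SNAI1, was at 106.2 and 97.4 CPM, versus 69.2 CPM. FBXL14, a degrader of SNAI1, was at 13.9 and 11.7 CPM, versus 19.6 CPM. SIAH1 was at 10.4 and 8.73 CPM, versus 5.46 CPM, and is uncertain because 26.7% of its exonic length overlaps a gene of the opposite strand.

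**Figure D4:**
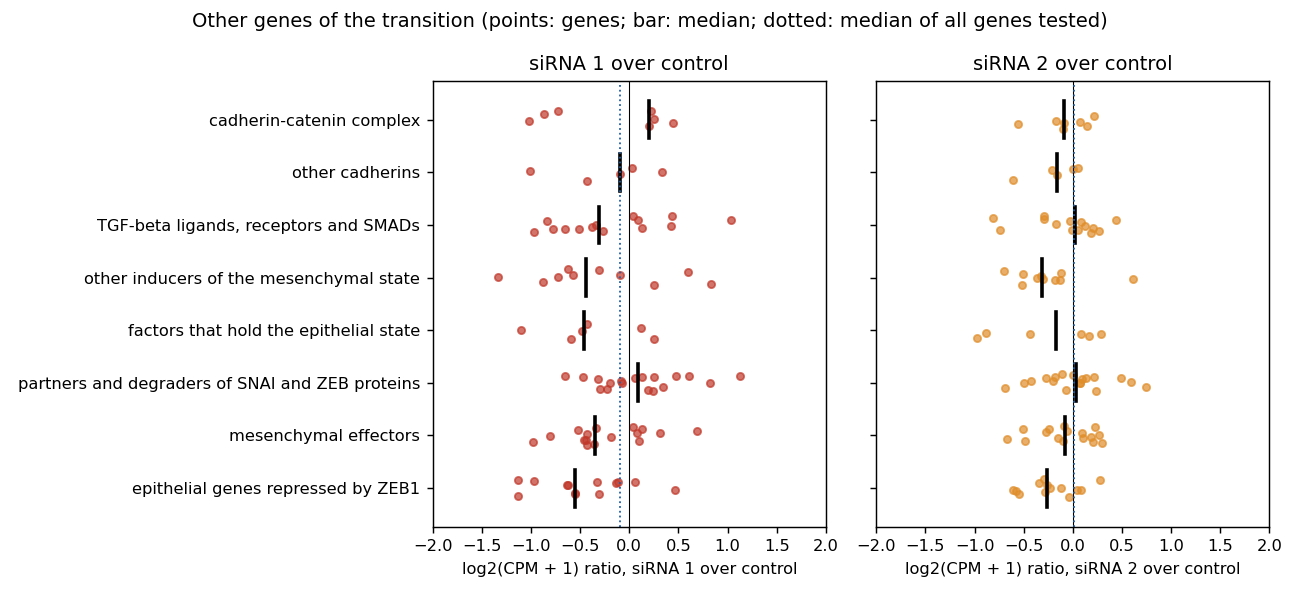
Log2(CPM + 1) ratios to the control of the measured genes of 8 lists, under siRNA 1 on the left and siRNA 2 on the right. Points are genes, black bars are list medians and the dotted line is the median of all genes tested. The GC trend was not removed. The bottom row, epithelial genes of which several are known targets of ZEB1 repression, has medians of −0.55 and −0.27, the lowest under siRNA 1 of the 8 lists.

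**Figure D5:**
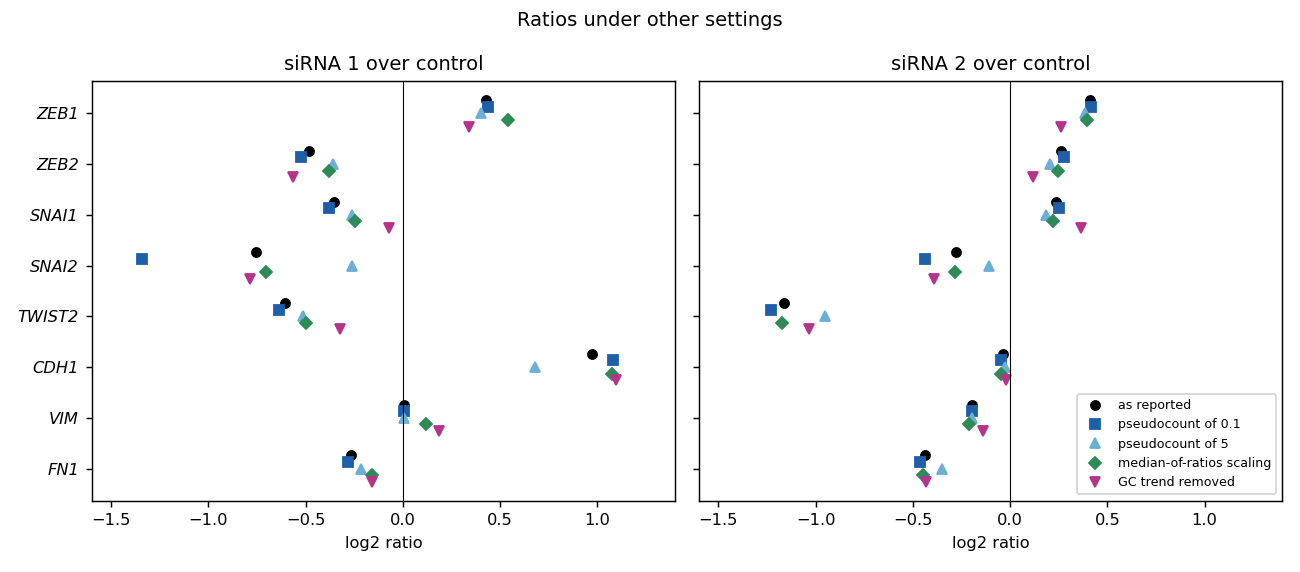
Log2 ratios to the control of the 8 genes, as reported and with a pseudocount of 0.1 or 5, median-of-ratios scaling or the GC trend removed, for siRNA 1 on the left and siRNA 2 on the right. ZEB1 stays above and TWIST2 and FN1 stay below the control in every setting shown, while SNAI2 moves most with the pseudocount.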

How the data were processed

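RNA of 3 DU145 transfections was sequenced. The submitters' processing notes name HTSeq 0.6.1, HISAT2 2.1.0 and bcl2fastq 2.19.1, with build hg19. Neither annotation release nor strand setting is given in the sources used here. CPM values, made by the authors, fill the deposited tables, summing to 999861 to 999868 per library. All values (100%) were whole reads within 0.001 read, so read pairs were recovered. Values of 1 read were taken as 0 pairs. A count of 0 would allow up to 3 pairs, 0.0998 to 0.101 CPM.

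Genes listed in all 3 tables with a mean of at least 1 CPM were tested across all genes with limma 3.58.1 in R 4.3.3 on log2(CPM + 1), a scale that understates changes of low genes. edgeR 4.0.16, DESeq2 1.42.0 and limma-voom on recovered pairs, median-of-ratios scaling, other pseudocounts and filters, and removal of the GC trend (lowess, fraction 0.3) were alternatives. Scripts were tested on simulated data. Intervals are 95% Poisson or exact Clopper-Pearson, and cover counting error only. GENCODE 29 (GRCh38) gave exonic length, GC content (99.8% of tested genes) and 3′ UTRs by gene identifier. Of each list at most 4 genes are named: those with the same sign under both siRNAs, ranked by the smaller of their 2 absolute log2 ratios. Some genes that this rule names are not reported here. The genes nearest to a member follow the member with the largest mean absolute log2 ratio. The genes and lists were chosen with earlier results of these data known.

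Figures used matplotlib 3.10.9, and other steps statsmodels 0.14.6, scipy 1.17.1, pandas 2.3.3 and numpy 2.4.6 in Python 3.11.15. P-values test the difference between the siRNA libraries and the control. Their error term comes from the spread between the 2 siRNA libraries, shared across genes. That spread may be technical or particular to each siRNA.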

Additional observations from a re-analysis of the deposited data

Results flagged for a closer look

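ZEB2 and SNAI1 lay on opposite sides of the control with the 2 siRNAs, each beyond counting error. The log2 ratio of siRNA 2 to siRNA 1 was 0.74 for ZEB2 and 0.59 for SNAI1. The difference was not tested against replicate spread, since each siRNA has 1 library.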

How the results depend on the processing

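None of the 8 genes passed under limma with other pseudocounts, filters or scaling, with the GC trend removed, or under edgeR, DESeq2 and limma-voom. DESeq2 gave no adjusted p for SNAI2, and SNAI2 is not tested with a filter at 5 CPM. Adjusted p ranged from 0.728 to 1.00 for TWIST2 and from 0.798 to 1.00 for ZEB1 over these alternatives. Over all genes, limma called 1 gene with median-of-ratios scaling and 1 with the GC trend removed. The edgeR likelihood ratio test was chosen after seeing the data.

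Under both siRNAs 1 gene of the 8 met the 1.5-fold rule, and 0 did so with a pseudocount of 5, with median-of-ratios scaling and with the GC trend removed. With 1 siRNA left out it was 1 (without siRNA 1) to 3 (without siRNA 2), and the count at 2-fold 0 to 1. The count at least 1.5-fold apart between the siRNAs was 3, and 5 with a pseudocount of 0.1 and 1 with a pseudocount of 5. It stayed at 3 with median-of-ratios scaling and with the GC trend removed, but with TWIST2 (−0.68 and −0.71) in place of SNAI1 (0.47 and 0.43). Of 95 values of single genes under alternatives, 9 changed sign. The 95 include values under other filters, which equal the main value by construction and could not change sign. The mean log2 ratio of SNAI1, −0.06, was 0.15 with the GC trend removed, 0.0019 with both edgeR tests and 0.0068 with DESeq2. That of VIM, −0.10, was 0.022 with the GC trend removed. With 1 siRNA left out, ZEB2 ranged from −0.48 to 0.26, SNAI1 from −0.35 to 0.23, CDH1 from −0.039 to 0.97 and VIM from −0.20 to 0.0051, by construction the 2 single ratios. Leaving out a library ends the test, since no residual degrees of freedom remain. Depth limits SNAI2, at 19 to 53 pairs. No paired analysis was possible because the single control library and the siRNA libraries share fewer than 2 replicate numbers.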
